A study of Mus musculus with 16 samples.

Results

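The 7 genes described here, H2-Aa, H2-Ab1, H2-Eb1, H2-DMa, H2-DMb1, Cd74 and Ciita, encode the mouse machinery that displays extracellular antigen on MHC class II. They were taken by symbol from the 18580 genes found in 16 expression tables, and a gene not listed in a table was set to 0. Each table holds 1 library of sorted brain cells, either microglia (CD11b+, CD45 low to intermediate) or macrophages (CD11b+, CD45 high), prepared by SMART-seq2, a full-length method for small RNA amounts. The macrophage gate can also hold border-associated macrophages, infiltrating monocytes, neutrophils and NK cells. The mice were males and females on a C57BL/6N background, either WT or CD163KO (CD163tm1.1(KOMP)Vlcg, a knockout allele of the scavenger receptor CD163). At an age of 12 weeks they received bilateral intrastriatal injections of murine α-synuclein, as monomer (α-syn MONO, the control) or as pre-formed fibrils (PFF), and cells were sorted 2 months p.i. from 4 to 7 mice per group. Every combination of population, sex, genotype and treatment has 1 table, and whether the sequenced triplicates were pooled in it is not given in the sources used here. All p-values therefore measure only the spread between libraries of different combinations, which may be technical.

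An MHC class II molecule is a pair of an α and a β chain. H2-Aa and H2-Ab1 encode the chains of the I-A molecule, and H2-Eb1 encodes the β chain of I-E. Its α chain gene H2-Ea, a transcribed pseudogene in the GRCm38 annotation, was not analysed here. The invariant chain Cd74 fills the groove of newly made molecules and guides them to the endosome, where cathepsins degrade it to a short peptide. The heterodimer of H2-DMa and H2-DMb1 then exchanges that peptide for antigen, and the heterodimer of H2-Oa and H2-Ob restrains this exchange. Ciita, the class II transactivator, binds no DNA itself and is recruited to an enhanceosome of RFX, CREB and NF-Y factors on the X and Y boxes of class II promoters. In the healthy brain, microglia are known for low class II expression, and border-associated macrophages and dendritic cells for higher expression.

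On chromosome 17 of GRCm38, H2-DMa (34119693 to 34139101), H2-DMb1 (34153191 to 34160229), H2-Ab1 (34263227 to 34269418), H2-Aa (34282744 to 34287823) and H2-Eb1 (34305867 to 34316674) lie in 1 cluster. The promoters are shown because Ciita acts through them. Stretches of 100 bases, from 130 to 31 bases before the annotated start, are given 5′ to 3′ on the gene's strand from RefSeq, build GRCm38.p6. Capitals mark X-like letters, AACNNTGA or AACNNNTGA, and the Y-like letters TGATTGG that follow after 10 to 25 bases.
H2-DMb1, chr17:34153061-34153160, plus strand: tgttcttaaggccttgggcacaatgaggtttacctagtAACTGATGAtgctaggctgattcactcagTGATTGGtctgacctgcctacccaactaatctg
H2-Aa, chr17:34287854-34287953, minus strand: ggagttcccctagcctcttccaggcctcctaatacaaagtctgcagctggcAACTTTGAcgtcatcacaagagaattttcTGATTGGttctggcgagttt
H2-Eb1, chr17:34305737-34305836, plus strand: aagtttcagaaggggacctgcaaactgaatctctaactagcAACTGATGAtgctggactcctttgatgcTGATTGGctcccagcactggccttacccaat
H2-DMb2, chr17:34145119-34145218, plus strand: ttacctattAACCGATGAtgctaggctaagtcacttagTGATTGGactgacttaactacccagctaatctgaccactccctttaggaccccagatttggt
H2-Ob, chr17:34238775-34238874, plus strand: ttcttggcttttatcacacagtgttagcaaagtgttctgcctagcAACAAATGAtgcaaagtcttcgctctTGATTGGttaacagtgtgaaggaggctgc
The spacing between the capitals was 20 bases in H2-DMb1, 21 in H2-Aa, 19 in H2-Eb1, 20 in H2-DMb2 and 17 in H2-Ob. Searching both strands of the 32851 promoters of 300 bases, TGATTGG occurred in 7.82%, the X-like letters in 22.0% and the ordered pair in 27 promoters (0.0822%). Of the 4 members with a promoter entry, 3 held the pair, and 2 of 24 other pathway genes did. H2-DMa had an entry and no match, and H2-Ab1, Cd74 and Ciita had no entry. The letters were chosen after the member promoters had been seen, so these counts are descriptions.

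Sequencing depth was 12170686 to 21433841 estimated counts per macrophage library and 8648751 to 18768238 per microglia library. The populations carried their own markers: summed homeostatic microglia markers such as P2ry12 ran from 916 to 1735 FPKM (fragments per kilobase of transcript, scaled to the mapped fragments of a library) in macrophages and from 16628 to 42722 FPKM in microglia. Border-associated macrophage markers ran from 1543 to 4574 FPKM and from 11.0 to 135.2 FPKM. Cd163 had 0 to 1 counts in the 4 CD163KO macrophage libraries against 748 to 5275 in WT, but in male microglia it ran opposite to the labels, at these low counts (5 to 10 in the libraries labelled CD163KO and 0 to 1 in those labelled WT). In female microglia it ran with the labels (11 to 23 counts in CD163KO and 46 or more in WT). The microglia library labelled female CD163KO MONO held 799 counts of 4 Y-linked genes, against 0 to 2 in the other female microglia libraries, which goes against its label. All contrasts within microglia, and the matching of microglia to macrophage libraries, are therefore those of the libraries as labelled, and an exchange of libraries would change what they mean. Male CD163KO MONO and male WT PFF stood apart from the other 6 combinations in both populations, with scaling factors (trimmed mean of M values, TMM) of 2.30 and 1.98 in macrophages and 0.55 and 0.28 in microglia. The study excluded male CD163KO MONO, so tests used the other 7 libraries per population, while levels are given for all 8.

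Class II transcripts were among the most abundant in the macrophage libraries. The 7 members took 4.6% to 25.9% of all counts there (median 12.8%, n = 8 libraries) and 0.0513% to 0.206% in microglia. Cd74 ranked 2 to 5 among all genes by FPKM in macrophages and 80 to 607 in microglia. These are bulk samples, in which fewer cells of a type and less RNA per cell cannot be told apart.

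**Figure D1:**
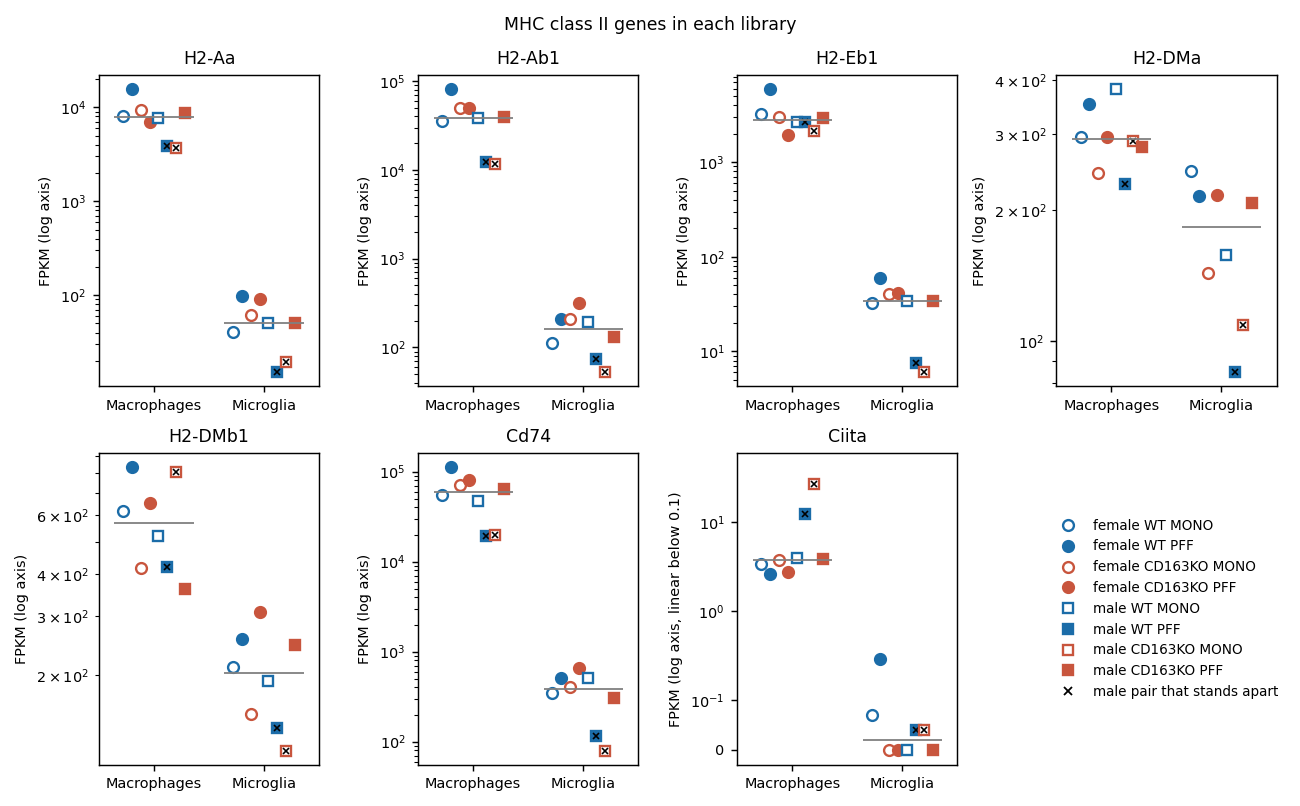
Level of each of the 7 members in each of the 16 libraries, as FPKM on a log axis (for Ciita linear below 0.1), with macrophages left and microglia right in each panel, symbols for sex, genotype and treatment, and a line at the median of 8 libraries. Every macrophage point lies above every microglia point for 6 members, and H2-DMa overlaps, with 229.7 FPKM in its lowest macrophage library and 246.7 FPKM in its highest microglia library.

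Among the chains, H2-Ab1 was the most abundant. In macrophages its FPKM was 35631 in female WT MONO, 82153 in female WT PFF, 49896 in female CD163KO MONO, 50408 in female CD163KO PFF, 38685 in male WT MONO, 12121 in male WT PFF, 11649 in male CD163KO MONO and 39074 in male CD163KO PFF. In microglia, in the same order, it was 112.5, 210.0, 209.2, 314.4, 193.9, 73.7, 52.5 and 130.1 FPKM. The combinations that stood apart were the lowest in both populations, and the highest was female WT PFF in macrophages and female CD163KO PFF in microglia.

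H2-Aa, in the same order of combinations, measured 8186, 15808, 9325, 6921, 7646, 3899, 3667 and 8617 FPKM in macrophages. In microglia H2-Aa measured 41.0, 98.7, 62.1, 90.7, 50.5, 15.1, 19.4 and 50.0 FPKM. No microglia library reached the lowest macrophage library of either I-A chain. H2-Eb1 was lower than H2-Aa in every library, with 3256, 5971, 2990, 1933, 2666, 2635, 2124 and 2914 FPKM in macrophages. Its microglia values were 32.1, 59.8, 40.6, 41.3, 33.8, 7.62, 6.02 and 33.9 FPKM, so it too did not overlap between the populations.

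Cd74 exceeded H2-Ab1 in all 16 libraries. Its macrophage values were 54329, 112560, 70682, 80273, 46796, 19371, 19532 and 63388 FPKM, and its microglia values 351.1, 513.7, 408.7, 660.6, 503.5, 116.2, 79.5 and 306.0 FPKM. As for H2-Ab1, the populations did not overlap and the pair of male combinations was lowest in each.

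The peptide exchanger was closer between the populations. H2-DMa measured 295.4, 352.1, 243.3, 295.0, 381.7, 229.7, 289.6 and 280.2 FPKM in macrophages and 246.7, 216.3, 143.2, 217.2, 157.4, 84.6, 108.7 and 208.2 FPKM in microglia. Its ranges overlapped, although microglia were lower in all 8 matched combinations. H2-DMb1 measured 616.5, 835.0, 416.8, 650.2, 519.5, 420.6, 807.8 and 361.9 FPKM in macrophages and 211.8, 255.5, 152.8, 308.9, 192.5, 139.0, 119.0 and 245.8 FPKM in microglia. Its ranges stayed apart by a small margin, since the highest microglia library lay below the lowest macrophage library of 361.9 FPKM. H2-DMb1 has a paralog, H2-DMb2, with which reads can be shared, and both values are uncertain to that extent.

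Ciita was the least abundant member and followed another order of libraries. It had 3.41, 2.59, 3.74, 2.74, 3.99, 12.2, 26.7 and 3.88 FPKM in macrophages, so that the male pair with the lowest H2-Aa, H2-Ab1 and Cd74 had the highest Ciita. In microglia it had 3, 25, 0, 0, 0, 4, 4 and 0 estimated counts, in sum 36 counts over 8 libraries against 5726 in macrophages. The 25 counts of female WT PFF correspond to 0.29 FPKM, and the 4 libraries at 0 limit Ciita only to the depth given above.

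Microglia were tested against macrophages with edgeR's quasi-likelihood test over 12823 genes, with the matched combination as a block. A gene was called at a Benjamini-Hochberg adjusted p of at most 0.05 and a difference of at least 1 on the log2 scale. The 6 members other than Ciita were called lower in microglia, where 18.4% of all genes were called, 11.5% lower and 6.9% higher. H2-Ab1 was 695.3-fold lower (log2 difference -9.44, SE 1.22, n = 7 per population, edgeR adjusted p = 0.000263), H2-Aa 427.4-fold lower (-8.74, SE 0.70, adjusted p = 1.06e-05) and H2-Eb1 254.5-fold lower (-7.99, SE 0.53, adjusted p = 3.31e-06). Differences among these 3 values were not tested on this scale.

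Cd74 was 427.5-fold lower in microglia (log2 difference -8.74, SE 1.28, edgeR adjusted p = 0.000622). Ciita passed the count filter through macrophages alone, so its call (fitted log2 difference -8.73) was set by the filter and the value by the prior count, and its counts above are the result. The exchanger genes moved least: H2-DMa was 4.59-fold lower (-2.20, SE 0.39, edgeR adjusted p = 0.00205) and H2-DMb1 6.95-fold lower (-2.80, SE 0.46, edgeR adjusted p = 0.00126). Of the members, only H2-DMa lost its call under another scaling, but all differences were smaller under library totals: -7.91 for H2-Ab1, -7.31 for H2-Aa, -6.58 for H2-Eb1, -7.28 for Cd74 and -1.34 for H2-DMb1. Under scaling by library totals its difference was -0.76 (edgeR adjusted p = 0.111), while the median of all genes moved from 0.32 to 1.94, and relative to that median H2-DMa stood at -2.52 under TMM and -2.70 under library totals. The same 6 members were also called without the microglia library labelled female CD163KO MONO (H2-DMa -2.07, SE 0.43, edgeR adjusted p = 0.0102) and without male WT PFF of both populations. Of all calls, 37.5% were higher in microglia under TMM and 90.5% under library totals.

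**Figure D2:**
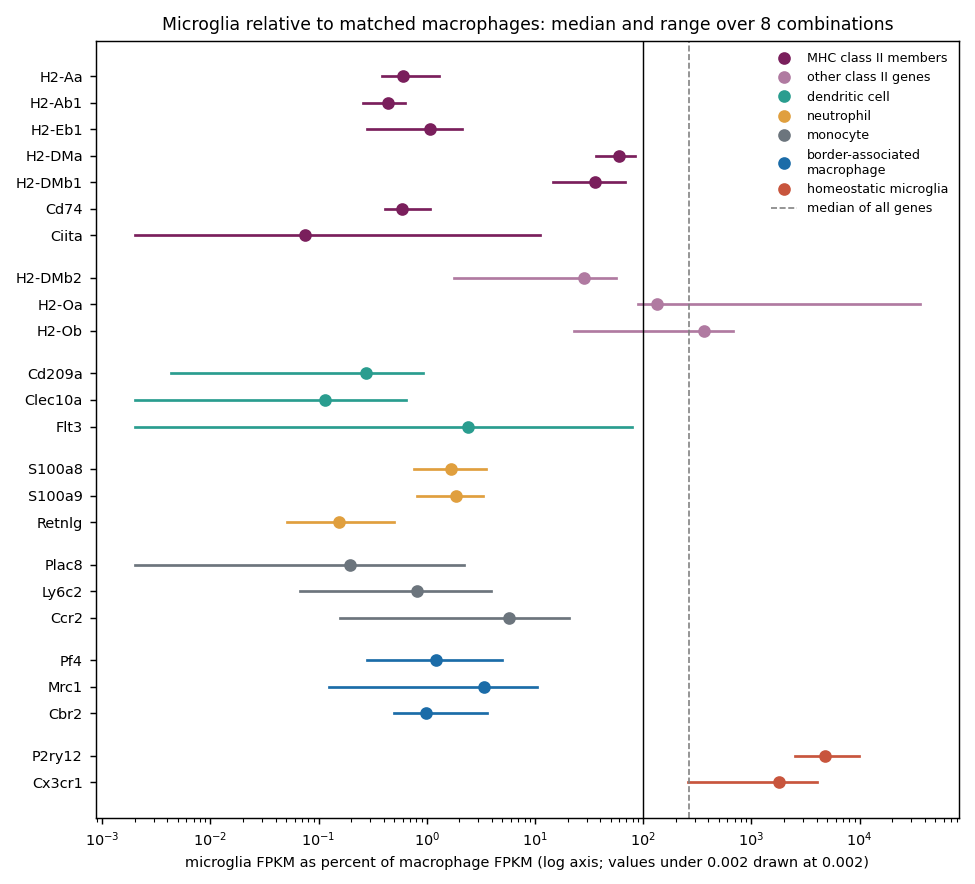
Microglia FPKM as a percent of the matched macrophage FPKM on a log axis, with the point at the median and the line over the range of 8 combinations, for the members, other class II genes and markers of cell types the gates could hold. H2-Ab1, Cd74 and H2-Aa have medians of 0.435% to 0.602%, and H2-DMb1 and H2-DMa have 35.5% and 60.2%.

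Matched within combinations, microglia held a median of 0.435% of the macrophage FPKM of H2-Ab1, 0.589% of Cd74, 0.602% of H2-Aa and 1.08% of H2-Eb1. For H2-DMb1 it was 35.5% and for H2-DMa 60.2%. Genes with at least 1 FPKM in both populations of a combination (4934 to 7990 genes) had a median of 264.4%. The median of such genes was 23.2% in male WT PFF, where both exchanger genes lay above it, and 48.8% in male CD163KO MONO. Among marker lists, the median over the genes with a ratio was 0.819% for monocyte, 1.69% for border-associated macrophage, 2.2% for neutrophil and 11.5% for dendritic cell markers. A ratio required macrophage FPKM above 0 in all 8 combinations and set no such limit for microglia. Of the 13 dendritic cell markers, 8 had a ratio. S100a8, a calcium-binding protein abundant in neutrophils, had 1.68%, and the macrophage marker Pf4 had 1.22%, but Csf3r, a receptor in the neutrophil list, had 735.1%. The dendritic cell lectin Cd209a ran from 592.6 to 1621 FPKM in macrophages and from 0.04 to 7.44 FPKM in microglia. Of the 13 dendritic cell markers, 7 were called lower and 1, Fscn1, was called higher in microglia, and markers near 0 in microglia passed the count filter through macrophages. Summed over the list they ran from 743.1 to 1971 FPKM in macrophages and from 33.1 to 213.3 FPKM in microglia. B cell markers overlapped in sum (11.4 to 135.2 FPKM and 16.6 to 73.5 FPKM), but nearly all of the microglia sum was Cd79b (16.5 to 73.3 FPKM), while Cd79a was at most 0.29 FPKM there and reached 41.3 FPKM in macrophages. The part of these other cells in the class II levels was not tested.

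Within a library, the composition of the machinery differed between the populations. The FPKM ratio of H2-DMa to H2-Aa ran from 0.0223 to 0.079 in macrophages and from 2.19 to 6.01 in microglia. The ratio of H2-DMb1 to H2-Ab1 ran from 0.00835 to 0.0693 and from 0.731 to 2.27. Neither overlapped. On the log2 scale these ratios were higher in microglia by 6.55 ± 0.55 and 6.57 ± 0.61 (SD over 7 matched pairs; exact sign-flip permutation test, two-sided, p = 0.0156 for each, the smallest that 7 pairs allow; adjusted over 7 ratios 0.0365). Between the exchanger chains themselves, the log2 ratio of H2-DMb1 to H2-DMa was lower in microglia by a smaller amount, -0.58 ± 0.46, in 7 of 7 pairs (exact permutation p = 0.0156, adjusted 0.0365).

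The ratios among chains and Cd74 moved by smaller amounts. H2-Eb1 to H2-Ab1 was higher in microglia by 1.31 ± 1.07, Cd74 to H2-Ab1 by 0.62 ± 0.40 (exact permutation p = 0.0312, adjusted 0.0365 for each), and H2-Ab1 to H2-Aa differed by -0.61 ± 0.63 (exact permutation p = 0.0469, adjusted 0.0469). With the excluded male combination added as an eighth pair, the adjusted p of these 3 ratios was 0.0547. The ratio tests were added after the levels had been seen. Ratios within a library do not depend on how libraries were scaled.

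Cd74 is made in a long and a short form, and the long one carries an extra exon for a thyroglobulin domain that inhibits cathepsin L. The long transcript (NM_001042605, 1431 bases against 1239) took 7.66% to 18.1% of Cd74 FPKM in macrophages (median 9.12%) and 10.5% to 20.3% in microglia (median 17.7%). The highest macrophage values, 18.1% and 17.9%, were those of male WT PFF and male CD163KO MONO. In male WT PFF microglia the share was lowest, at 10.5%. The log2 ratio of long to short form was higher in microglia by 0.90 ± 0.80 over 7 pairs (exact permutation p = 0.0312, adjusted 0.0365), and with 8 pairs the adjusted p was 0.0547. Cathepsin L itself (Ctsl) was called higher in microglia, with a log2 difference of 2.15 (SE 0.26, edgeR adjusted p = 0.000155).

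Ciita is read from several alternative first exons that differ between cell types. On chromosome 16 of GRCm38 the transcripts start at 10480059, at 10488279 and at 10489781, the last 9722 bases downstream of the first. In male WT PFF macrophages 1130 of 1150 Ciita counts were assigned to the most downstream start, whereas in male CD163KO MONO macrophages all 2733 were assigned to the most upstream one. The remaining 6 macrophage libraries had most or all counts at the upstream start: male WT MONO had 19 counts at the downstream start, and female CD163KO MONO had 83.7 at the middle start and 164.3 upstream. The 2 libraries with the highest Ciita thus differed in the first exon assigned. Assignment among transcripts that share most exons is an estimate.

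**Figure D3:**
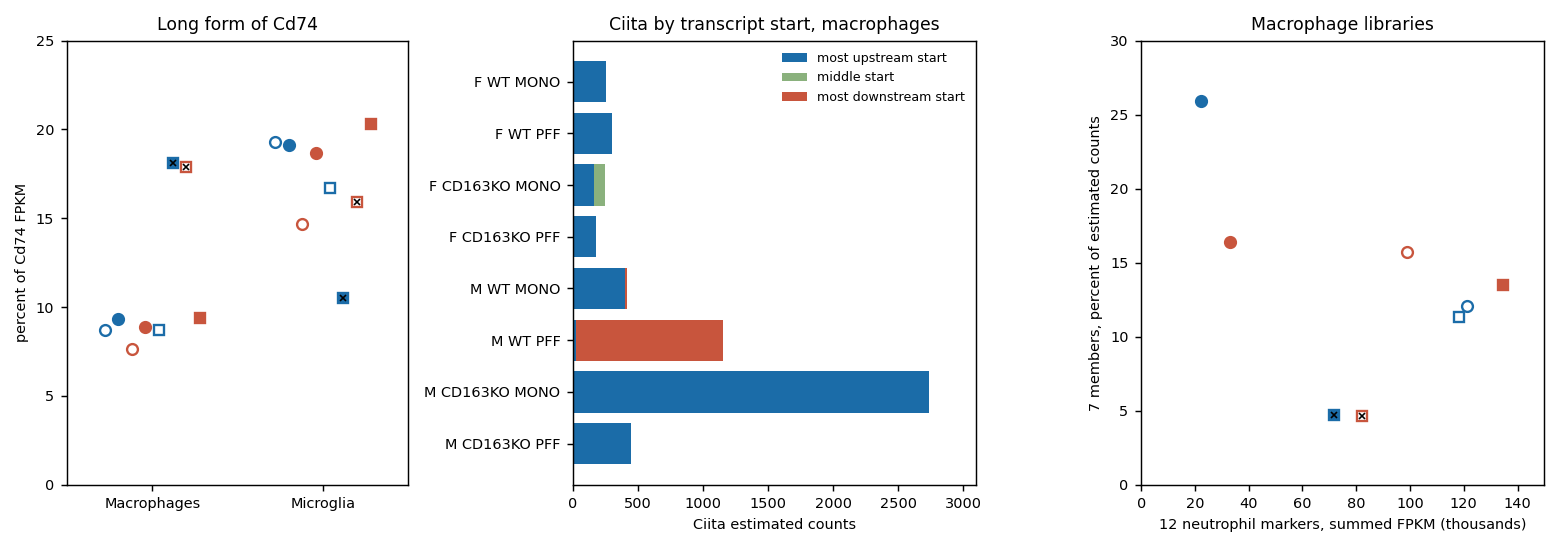
Left, long form of Cd74 as a percent of Cd74 FPKM in each library; middle, estimated Ciita counts of each macrophage library by transcript start; right, percent of counts taken by the 7 members against summed neutrophil marker FPKM in macrophages (circles females, squares males, blue WT, red CD163KO, filled PFF, open MONO, crosses the male pair that stood apart). The male pair has about 18% long form in macrophages, and male WT PFF alone has most Ciita counts at the downstream start.

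The other genes of the pathway were called in both directions. Of 31 listed genes 30 were found and 29 tested, with 2 called higher in microglia, 5 lower and 22 not called, that is 7 of 29 called beside 18.4% of all genes (median log2 difference -0.09, against 0.32 over all genes). Among the lower were the paralog H2-DMb2 (-3.58, SE 0.41, edgeR adjusted p = 0.00011), the cathepsin Ctsb (-2.10, SE 0.67, edgeR adjusted p = 0.0473), the thiol reductase Ifi30 (-1.63, SE 0.27, edgeR adjusted p = 0.0014) and the myeloid factor Spi1. The second gene higher in microglia was Irf8, a factor of the interferon regulatory family (1.03, SE 0.19, edgeR adjusted p = 0.00249). These calls were made with TMM scaling. By FPKM within combinations, Spi1 was lower in microglia in 4 of 8, Ifi30 in 5 and Ctsb in 7, Irf8 was higher in 6, and H2-DMb2 was lower in all 8. Components of the enhanceosome, Rfx5, Rfxank, Rfxap, Creb1, Nfya, Nfyb and Nfyc, were not called, with log2 differences from -1.26 to 1.46.

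H2-Oa and H2-Ob, the inhibitor of the exchanger, gave log2 differences of -1.02 (SE 0.94, edgeR adjusted p = 0.485) and 0.09 (SE 0.24, edgeR adjusted p = 0.82). H2-Oa measured 51.1, 59.2, 33.1, 46.6, 64.3, 0.05, 24.0 and 19.7 FPKM in macrophages and 58.0, 59.4, 33.5, 76.4, 57.9, 18.1, 37.1 and 52.0 FPKM in microglia, in the order of combinations given for H2-Ab1. Male WT PFF macrophages had 1 count of it. H2-Ob ran from 5.45 FPKM in female WT PFF to 30.3 FPKM in male WT PFF macrophages and from 6.99 FPKM in male WT PFF to 40.1 FPKM in male WT MONO microglia. Both H2-O genes thus had overlapping ranges in the 2 populations. By FPKM within combinations, H2-Oa and H2-Ob were each lower in microglia in only 1 of 8. Their median percents of macrophage FPKM were 133.9% and 362.1%. The ratio of H2-Oa to H2-DMa ran from 0.000218 to 0.173 in macrophages and from 0.214 to 0.368 in microglia. For H2-Ob to H2-DMb1, the ranges overlapped (0.00653 to 0.0719 and 0.0503 to 0.24).

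The first question within a population is whether fibrils changed the class II level against monomer. In macrophages, Cd74 in PFF was 2.07 times MONO in WT females, 1.14 times in CD163KO females, 0.414 times in WT males and 3.25 times in the CD163KO males left out of the fit. H2-Ab1 gave 2.31, 1.01, 0.313 and 3.35 times in the same order. For Cd74 and H2-Ab1, the only pair below 1 rests on male WT PFF, and the highest ratio on male CD163KO MONO, both libraries that stood apart. In CD163KO females, H2-Aa (0.742 times), H2-Eb1 (0.646 times) and Ciita (0.733 times) also lay below 1. H2-DMa (1.21 times) and H2-DMb1 (1.56 times) lay above 1 there. No member was called, and neither was any of the 11070 genes tested (0%, 125 at unadjusted p under 0.05 in edgeR, and 5 calls by DESeq2). Fitted log2 differences of the 7 members were all positive, 0.35 to 0.83, with SE of 0.54 to 2.00 and edgeR adjusted p of 1.0. Their median was 0.70 against -0.11 over all genes, and without female WT PFF it was -0.85.

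Markers of several other cell types were lowest in that library. The neutrophil sum was 121149 FPKM in female WT MONO and 22182 FPKM in female WT PFF macrophages, and it was 98753 and 32903 FPKM in the CD163KO females, 118223 and 71689 FPKM in the WT males, and 82260 and 134672 FPKM in the CD163KO males. Female WT PFF thus had the lowest neutrophil sum and the highest class II share, 25.9%. Its summed monocyte markers (342.1 FPKM, against 1526 in female WT MONO), border-associated macrophage markers (1543 against 2533 FPKM), dendritic cell markers (743.1 against 1030 FPKM), T and NK cell markers (45.0 against 135.0 FPKM) and B cell markers (11.4 against 37.4 FPKM) were also the lowest of the 8 macrophage libraries. The part of these cells in that share was not tested.

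In microglia, H2-DMb1 in PFF was 1.21 times MONO in WT females, 2.02 times in CD163KO females and 0.722 times in WT males, and 2.07 times in the CD163KO males left out of the fit. It had the largest fitted difference of the 6 members tested, 1.00 (SE 0.41, edgeR unadjusted p = 0.0356, adjusted p = 0.76, n = 4 PFF and 3 MONO libraries), and DESeq2 gave it an adjusted p of 0.305. H2-Aa in PFF was 2.4, 1.46 and 0.299 times MONO, with a fitted difference of 0.67 (SE 0.31, edgeR adjusted p = 0.76). All 6 fitted values were positive, from 0.34 to 1.00, and none was called, as was true of all 11740 genes (0%, 739 at unadjusted p under 0.05 in edgeR, 29 calls by DESeq2). Their median was 0.60 against 0.12 over all genes and was -0.04 under library totals and -0.02 under limma. Ciita did not pass the count filter of 10 counts in 3 libraries in microglia.

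**Figure D4:**
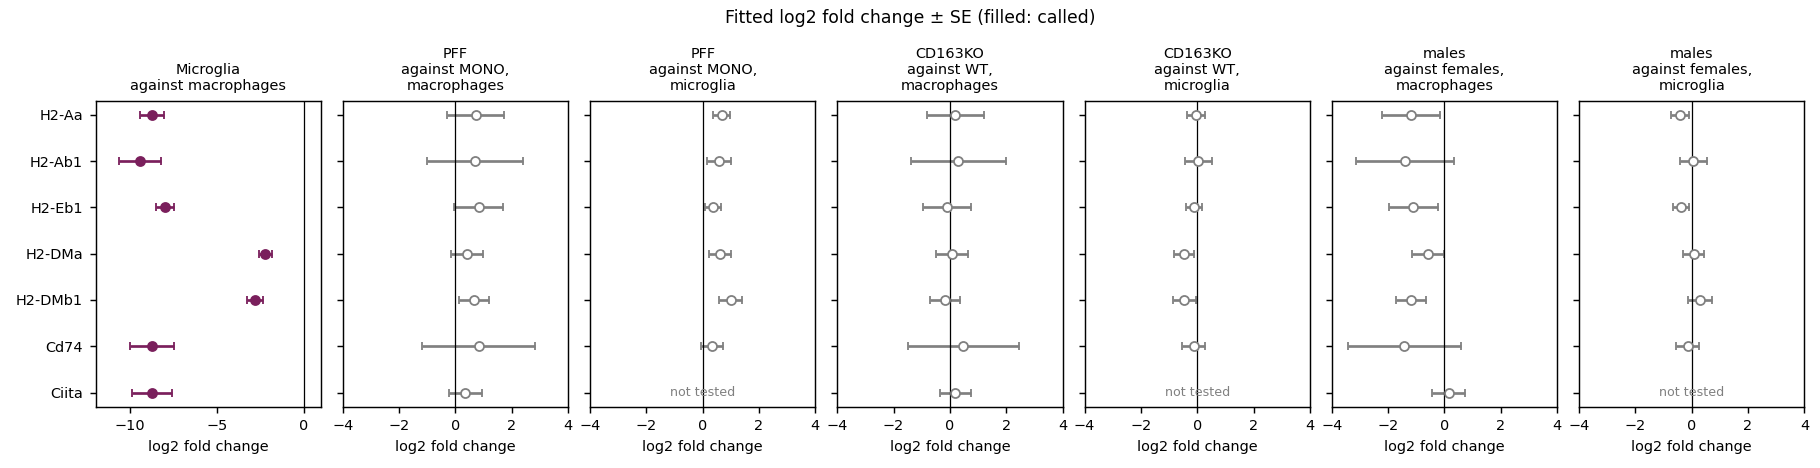
Log2 difference and standard error of each member for microglia against macrophages and for PFF against MONO, CD163KO against WT and males against females in each population (edgeR, 7 libraries per population). Members were called in the population comparison only, where H2-DMa and H2-DMb1 lie nearest 0.

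Loss of CD163 was compared next. In macrophages the members' log2 differences of CD163KO against WT ran from -0.19 to 0.48 (SE 0.53 to 1.96, edgeR adjusted p 1.0), with a median of 0.19 against 0.15 over all genes, which changed sign in 8 of 16 settings and was -0.75 without male CD163KO PFF and 1.18 without female WT PFF. No member was called. The only call was Cd163 itself (edgeR adjusted p = 0.0162), 0.00903% of the genes tested, with 76 at unadjusted p under 0.05 in edgeR and 1 call by DESeq2. Cd74 in CD163KO was 1.3 times WT under MONO and 0.713 times under PFF in females, and in males it was 3.27 times under PFF and 0.417 times under MONO, where the WT PFF and the CD163KO MONO library stood apart. In microglia the differences ran from -0.47 to 0.04 (SE 0.29 to 0.48, edgeR adjusted p 1.0), by the labels as given, again with no member and no other gene called (141 at unadjusted p under 0.05, 3 calls by DESeq2). H2-DMa and H2-DMb1 had the lowest values there, -0.47 (SE 0.37) and -0.46 (SE 0.41).

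No member was called between males and females. In macrophages the members ran from -1.42 to 0.15 in males against females (SE 0.54 to 2.02, edgeR adjusted p 1.0), lowest for Cd74 and highest for Ciita, with 0 genes called (150 at unadjusted p under 0.05, 16 calls by DESeq2). The median was -1.19 against -0.15 over all genes, and without female WT PFF macrophages it was 0.23. In WT MONO mice the macrophage level of H2-Ab1 was 1.09 times as high in males, in CD163KO PFF mice 0.775 times, and in CD163KO MONO mice, with the male library left out of the fits, 0.233 times. In WT PFF mice it was 0.148 times, a ratio of the male library that stood apart to the highest macrophage library. In microglia the members ran from -0.42 to 0.29 (SE 0.29 to 0.48), with 0 genes called (193 at unadjusted p under 0.05, 17 calls by DESeq2).

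Tests of differences between these effects (treatment by genotype, treatment by sex, population by treatment and population by genotype) called no member in any setting and, with the 7 libraries, TMM and the count filter, no other gene in edgeR. Counts over all genes in these tests depended on the libraries kept. Without female WT PFF, for instance, the WT PFF macrophages in the treatment by genotype fit were male WT PFF alone, a library that stood apart. The lowest unadjusted p of a member was 0.0113, for the population by genotype term of Ciita (-5.75, SE 1.58, edgeR adjusted p = 1.0). Ciita passed the count filter through macrophages alone, and this term rests on its few counts in the 7 microglia libraries kept. For the edgeR treatment by sex term in microglia, the unadjusted p was under 0.05 for 1218 of all genes and DESeq2 called 374. Over all settings tried, the lowest edgeR adjusted p of a member within a population was 0.0559, for H2-Ab1 in that term without male WT PFF microglia.

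The members differed in how closely they varied together. Over the 8 microglia libraries, Pearson's r of log2(FPKM + 1) was 0.89 to 0.96 among H2-Aa, H2-Ab1, H2-Eb1 and Cd74, 0.86 between H2-DMa and H2-DMb1 and 0.62 to 0.83 between the groups. In macrophages these values were 0.53 to 0.99, 0.52 and 0.09 to 0.47. In macrophages, Ciita ran against H2-Ab1, Cd74 and H2-Aa, with r of -0.93 to -0.86. Its r was -0.44 with H2-Eb1, -0.36 with H2-DMa and 0.13 with H2-DMb1. All these correlations are descriptions over libraries that share depth, scaling and the pair that stood apart.

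By the same measure, the 5 genes most like the mean profile of the members in microglia were Osm, Cd83, Ppp1r15a, Rhobtb1 and Ier2, with r of 0.979 to 0.99 among 10016 genes over 8 libraries. Osm, a cytokine of the interleukin-6 family, ran from 3.19 to 52.0 FPKM, and Ier2, an immediate early gene, from 22.2 to 337.5 FPKM. Cd83, which stabilises class II on the cell surface, ran from 101.7 to 453.9 FPKM. In macrophages the 5 were Cnnm3, Tmem91, Prl, Fth1 and the class I gene H2-Q9, with r of 0.836 to 0.926 among 8009 genes. Cnnm3 (0 to 6.54 FPKM), Tmem91 (0 to 3.62 FPKM), Prl (0 to 28.1 FPKM) and H2-Q9 (0 to 28.9 FPKM) fell to 0. Fth1 ran from 4184 to 6631 FPKM. The mean profile includes Ciita, whose own r with it in macrophages was -0.61.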

How the data were processed

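Per the labels and methods, the authors removed ribosomal and low-quality reads, aligned with Bowtie2 (mm10 per the processing notes) and quantified with RSEM; tool versions are not given in the sources used here. The deposited tables list, per RefSeq transcript, an expected count and an FPKM. The count was whole for 55.8% to 70.2% of listed transcripts in macrophages and 49.8% to 62.6% in microglia, so shared reads had been divided. Here 27632 transcripts were summed into 18580 genes by RefSeq symbol (GRCm38.p6). Rows without a symbol held at most 0.128% of counts. Counts were rounded and tested in edgeR 4.0.16 (R 4.3.3) with TMM, at least 10 counts in 3 libraries, and additive terms for the other factors. Residual degrees of freedom were 3 within a population and 6 between. They were fewer in the interaction fits and in fits that left out a library. SE were computed from the F statistic. Alternatives used DESeq2 1.42.0, limma 3.58.1 on log2(FPKM + 1) or log2(FPKM + 0.1), no filter, library totals and leaving out libraries. Scripts were tested on simulated data. Transcript starts came from GENCODE M21. The members and lists were chosen with earlier results of these data known. Named were all members, called pathway genes (at most 4 per direction) with H2-DMb2 and H2-Ea, at most 4 markers per list by mean FPKM, the 5 genes most like the members, and Cd163 and Y-linked genes; Cd209a, Pf4, Fscn1, P2ry12, Spi1 and the H2-O and enhanceosome genes were named after their values were seen. The batches of mice that the methods name could not be assigned to libraries. The ratio tests, a term for the male pair that stood apart and the fits without male WT PFF of both populations were added after seeing the data. A few listed genes are not reported here.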

Additional observations from a re-analysis of the deposited data

Results flagged for a closer look

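In each population the 7 members were screened over the 8 libraries for a highest or lowest value separated from its neighbour by more than 0.526 of the whole range on the log2(FPKM + 1) scale (Dixon's ratio), 14 gene sets in all; chance alone marks about 1 in 20. The macrophage library of female WT PFF had H2-Eb1 at 5971 FPKM, the next highest being 3256 FPKM. The microglia library of female WT PFF had Ciita at 0.29 FPKM, the next highest being 0.07 FPKM. Because 4 microglia libraries had 0 counts of Ciita, the rate of 1 in 20 does not hold for this flag.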

How the results depend on the processing

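In the population comparison, 5 members were called in all 24 alternatives and H2-DMa in 21 (Ciita entered through macrophages alone): it missed the fold limit at -0.76 under library totals and limma (adjusted p 0.111, 0.0459 and 0.044). Calls over all genes there went from 2359 to 6291 (library totals), 4258 (DESeq2), 5870 and 6296 (limma with 1 and 0.1 added) and 4072 (male WT PFF of both populations left out), and ran from 1726 to 4084 leaving out 1 library (4084 without male WT PFF of either population); without the block 2709 genes were called. Within populations no alternative called a member. Calls over all genes within populations and in the interactions moved as follows, and alternatives not named stayed within 1.5 times. Library totals gave 1 for PFF in macrophages, 2 for PFF in microglia, 6 and 5 for sex in macrophages and microglia, 5 and 1 for treatment by genotype, 3 for treatment by sex in microglia and 3 for population by genotype. DESeq2 gave 5 and 29 for PFF, 3 for CD163KO in microglia, 16 and 17 for sex, 11 and 29 for treatment by genotype, 6 and 374 for treatment by sex, 34 for population by treatment and 36 for population by genotype. No filter gave, in microglia, 11 for PFF, 19 for CD163KO, 6 for sex, 105 for treatment by genotype and 367 for treatment by sex, and 1 for sex in macrophages. Limma with 1 and 0.1 added gave, in macrophages, 1 and 4 for PFF, 4 and 5 for CD163KO, 6 and 9 for sex and 3 and 5 for treatment by genotype, and in microglia 3 and 3 for sex, 2 and 1 for treatment by genotype and 1 and 1 for treatment by sex. Adding male CD163KO MONO gave 1 for sex in macrophages, and leaving out male WT PFF of both populations gave 1 for each population interaction. Leaving out 1 library gave 0 to 1 (PFF, microglia, 1 without male WT PFF), 0 to 5 (CD163KO, macrophages, 5 without male WT PFF and 0 without any of the other 6), 0 to 2 (sex, microglia, 2 without female CD163KO MONO and 1 without male WT PFF), 2 to 3507 and 0 to 147 (treatment by genotype, macrophages and microglia, highest without female WT PFF), 0 to 2756 and 0 to 729 (treatment by sex, highest without male CD163KO PFF, and in microglia 157 without male WT PFF microglia), 0 to 5 and 0 to 1 (population interactions, highest without male WT PFF macrophages). The cause was not tested. The sign of the members' median within populations changed in 1 to 8 of 16 settings for each of the 6 comparisons, most often for CD163KO in macrophages (-0.75 to 1.18). By replicate number, no paired analysis was possible because each group holds 1 library; matched combinations served as the block between populations. Depth limits Ciita in microglia.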
